A study of Mus musculus with 4 samples.

Results

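The genes described here are 39 antiviral interferon-stimulated genes, taken by gene name from a table of 51826 mouse gene models. All 39 names were found, each for 1 gene model, and all 39 had enough counts to be tested. The table holds RNA-seq of cultured primary microglia in 4 libraries, 2 treated with LysoPS for 4 h and 2 mock libraries labelled untreated. Both groups came from newborn C57BL/6 brains, dissociated with trypsin, grown for 2 weeks and enriched for microglia by shaking. The samples' descriptions read WT1 and WT2 for mock and WTL1 and WTL2 for LysoPS, without spelling out WT. No genotype other than this label and the strain is given. LysoPS (lysophosphatidylserine) is a lipid that activates the receptor GPR34, and its dose is not given in the sources used here. The treatment protocol speaks of 1 treated replicate while 2 samples are labelled as treated, and the groups follow the samples' labels. Nothing says that the replicates were separate cultures, so p-values measure only the spread between these libraries, which may be technical.

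Interferon-stimulated genes are the transcripts that rise when a cell senses type I interferon. The hormone-like ligands (IFN-beta and the IFN-alpha family) bind the receptor chains IFNAR1 and IFNAR2, the kinases JAK1 and TYK2 then phosphorylate STAT proteins, and the factor ISGF3, which contains IRF9, binds the interferon-stimulated response element (ISRE) in promoters. The products sense viral RNA, block its translation or degrade it, stop virus entry and release, or feed back on the pathway itself. In microglia, the macrophages of the brain, this set is known from viral infection, ageing and injury.

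The LysoPS libraries held 34689045 and 45193959 counts and the mock libraries 30001098 and 41572340. The cultures held RNA of several cell types. Markers are called higher or lower at an adjusted p under 0.05 (edgeR), as were 12.8% and 12.6% of all 19057 genes tested. A call for 1 marker among 10 or 11 is near these shares. Microglia and macrophage markers summed to 18044 and 15949 CPM (counts scaled to library size by TMM) in the LysoPS libraries, against 6885 and 6288 CPM in the mock libraries, and 14 of their 21 gene models were higher and 2 lower, with Lyz2 and Adgre1 the most abundant. Their median log2 fold change was 0.54 (range -0.80 to 3.73), and Lyz2 alone took 10513 and 9123 CPM in LysoPS and 2929 and 2700 CPM in mock. Astrocyte markers, led by Gfap, Aqp4 and Slc1a3, summed to 6125 and 6874 CPM in LysoPS and to 12297 and 11129 CPM in mock, with 10 of 12 lower. Fibroblast markers, led by Fn1, Col1a1 and Col3a1, summed to 12616 and 12931 CPM in LysoPS and to 15088 and 15208 CPM in mock, with 1 of 11 higher and 4 lower. Of 10 oligodendrocyte lineage markers, led by Pdgfra, Cnp and Olig1, 4 were higher and 1 lower. Pdgfra is also among the 11 fibroblast markers. Of 10 neuron markers, led by Map2, Dcx and Tubb3, 1 was higher. Of 6 tested endothelial markers, led by Cdh5, Kdr and Flt1, 3 were lower. Of 4 tested markers of plasmacytoid dendritic, T and NK cells, led by Tcf4, Bst2 and Ccr9, only Bst2, itself an antiviral member, was higher. The T and NK cell markers Cd3e, Cd3d and Ncr1 had no count in any library, and Siglech, a marker shared by plasmacytoid dendritic cells and microglia, had none in LysoPS and 2 counts in each mock library. In such bulk samples, fewer cells of a type and less RNA per cell cannot be told apart, and the part of these marker shifts in the values below was not tested.

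After LysoPS, 35 of the 39 antiviral genes were higher at an adjusted p under 0.05 (edgeR), against 12.8% of all 19057 genes tested. None was lower, against 12.6% of all genes, also at an unadjusted p under 0.05 or by DESeq2 and limma-voom. The median log2 fold change of the 39 was 0.99 (range -0.15 to 2.15), while the median over all tested genes was -0.01 and 6.00% of all genes lay above the members' median. Changes of at least 2-fold were called for 19 members, against 4.32% of all genes. In 37 members both LysoPS libraries lay above both mock libraries, as they did in 32.5% of all genes. The members were chosen with earlier results of these data known, so these shares are a description and the list as a whole was not tested.

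Fewer members passed when 1 library was left out, and fewest without a mock library, where fewer of all genes passed as well. The members' median log2 fold change was 1.06 without mock replicate 1 and 0.99 without mock replicate 2. It was 0.91 without LysoPS replicate 1 and 1.15 without LysoPS replicate 2. The median of all genes lay between -0.026 and 0.00074 in these fits. In all, 20 of the 35 passed whichever library was left out, and all 35 kept a positive log2 fold change in every alternative fit that tested them. On the authors' TPM values, per transcript length, the median of all genes moved to -0.16, the share of higher genes among all calls went to 30.7%, against 50.4% on counts, and 25 members passed, all higher. The 10 lost there were Ifit3b, Oas3, Oasl2, Ddx58, Eif2ak2, Herc6, Samd9l, Parp12, Dtx3l and Rtp4 (adjusted p from 0.0515 to 0.642).

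**Figure D1:**
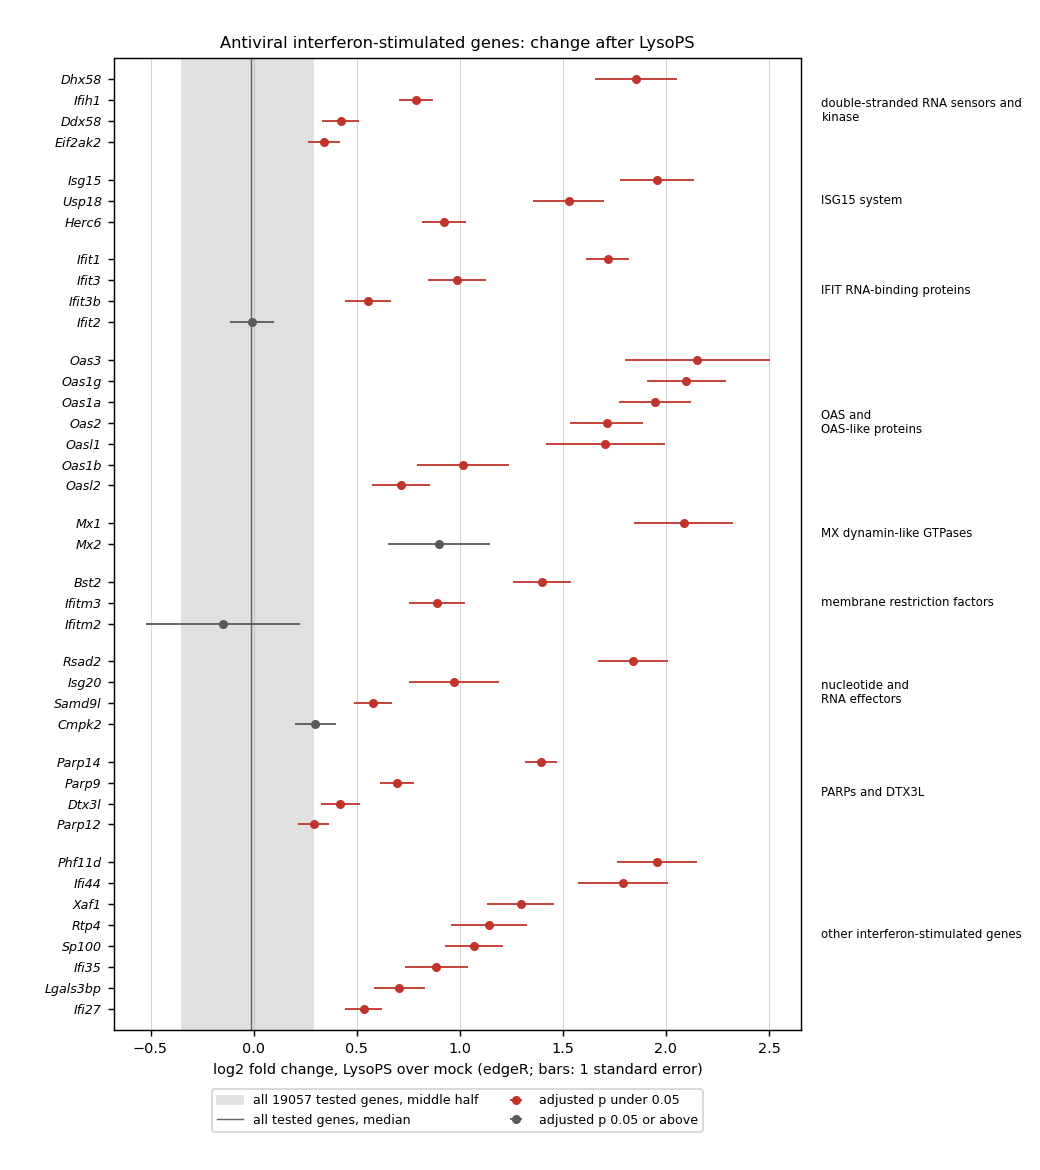
Log2 fold change of each antiviral interferon-stimulated gene, LysoPS over mock, grouped by role. Points are edgeR estimates and bars 1 standard error. The grey band holds the middle part of all 19057 tested genes, from -0.35 to 0.29, and 35 members, drawn in red, passed at an adjusted p under 0.05 while Ifit2, Mx2, Ifitm2 and Cmpk2, in grey, did not.

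Promoter sequence was the feature that could be read beside the expression values. RefSeq promoter windows of 300 bases (250 before to 50 after the start, build GRCm38.p6) were found for 29 of the 39 members. The ISRE core (GAAA, then any 2 bases, then GAAA), searched on both strands with overlapping matches kept, was present in 14 of these 29 (48.3%), against 3.99% of all 27025 genes with a window and 3.44% of all 32851 windows. The GAS motif of STAT proteins, TTCNNNGAA, which reads the same on both strands, was present in 7 of 29 (24.1%) and in 9.55% of all genes. Of the 14 members with an ISRE core match 13 were higher, with a median log2 fold change of 1.19 (range -0.15 to 2.15), and of the 15 without one 13 were higher, with a median of 0.89 (range -0.01 to 1.96). The ranges of the members with and without a match thus overlapped almost entirely.

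The 150 bases just before the start follow for the ubiquitin-like modifier Isg15 and for 2 pairs in which one gene rose and the other did not pass: Ifit1 and Ifit2, at opposite ends of the IFIT cluster on chromosome 19, and the neighbours Rsad2 and Cmpk2 on chromosome 12. The pairs were chosen with their values known. Each is written 5′ to 3′ in the direction of transcription, with matches to the ISRE core on either strand in capitals.
Isg15 (chr4:156200819-156200968, minus strand): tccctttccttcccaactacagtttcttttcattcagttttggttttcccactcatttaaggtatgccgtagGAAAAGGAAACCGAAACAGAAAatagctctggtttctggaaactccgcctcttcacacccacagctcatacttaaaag
Ifit1 (chr19:34640739-34640888, plus strand): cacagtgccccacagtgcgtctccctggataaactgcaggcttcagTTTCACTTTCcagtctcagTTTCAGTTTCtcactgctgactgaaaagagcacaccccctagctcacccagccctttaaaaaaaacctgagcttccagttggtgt
Ifit2, first start (chr19:34550544-34550693, plus strand): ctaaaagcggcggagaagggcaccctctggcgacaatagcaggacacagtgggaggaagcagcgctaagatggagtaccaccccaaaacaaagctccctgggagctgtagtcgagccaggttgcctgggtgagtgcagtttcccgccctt
Rsad2 (chr12:26456453-26456602, minus strand): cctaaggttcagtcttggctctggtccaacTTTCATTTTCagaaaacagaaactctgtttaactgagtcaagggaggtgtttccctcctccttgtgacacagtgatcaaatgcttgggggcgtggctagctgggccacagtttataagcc
Cmpk2 (chr12:26469065-26469214, plus strand): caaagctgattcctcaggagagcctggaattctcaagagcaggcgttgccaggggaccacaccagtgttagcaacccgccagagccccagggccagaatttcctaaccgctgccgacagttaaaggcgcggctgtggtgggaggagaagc
Isg15 held 3 overlapping matches, Ifit1 held 2 and Rsad2 held 1. Neither window of Ifit2 (the second start has its own) nor that of Cmpk2 held one, which says only that these letters are not in these windows. The neighbours Ifitm2 and Ifitm3 went the other way: Ifitm2, which did not pass, had a match before its start, at position -46, while Ifitm3, which rose, had its 2 matches after the start and none in the bases before it.

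The cytosolic sensors of double-stranded RNA and the kinase that answers it rose together, by very different amounts. Dhx58, which encodes the regulatory helicase LGP2, stood at 22.8 and 16.1 CPM in the LysoPS libraries, against 5.45 and 5.29 CPM in the mock libraries, and was 3.62-fold higher (log2 fold change 1.86, SE 0.20, adjusted p = 0.00399). Both LysoPS libraries were clearly above both mock libraries, although LysoPS replicate 1 was the higher of the pair. Ifih1, which encodes the long-RNA sensor MDA5, had 37.9 and 38.7 CPM in LysoPS and 21.6 and 22.7 CPM in mock (log2 fold change 0.79, adjusted p = 0.00383). Ddx58, which encodes RIG-I, the sensor of triphosphate RNA ends, had 71.1 and 63.0 CPM in LysoPS and 49.4 and 50.7 CPM in mock (log2 fold change 0.42, adjusted p = 0.0264). Eif2ak2 encodes PKR, which halts translation on binding such RNA, and had 80.0 and 86.3 CPM in LysoPS and 64.4 and 66.9 CPM in mock (log2 fold change 0.34, adjusted p = 0.0332). In all of these genes both LysoPS libraries lay above both mock libraries, as they did in 32.5% of all genes. The small rises of Ddx58 and Eif2ak2 did not pass without mock replicate 1 (adjusted p = 0.141 and 0.197) or mock replicate 2 (0.119 and 0.145), nor Ddx58 without LysoPS replicate 1 (0.0616) or Eif2ak2 without LysoPS replicate 2 (0.0686), and with TPM they did not pass, at 0.17 and 0.12 on the log2 scale.

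All 3 genes of the ISG15 system were higher, against 12.8% of all genes. They stayed higher whichever library was left out, although Herc6 did not pass with TPM (adjusted p = 0.0548). ISG15 is a ubiquitin-like protein that is attached to other proteins and also secreted. Isg15 had 17.6 and 13.3 CPM in the LysoPS libraries, against 3.83 and 4.09 CPM in the mock libraries, which is 3.88-fold (log2 fold change 1.96, SE 0.18, adjusted p = 0.0027). The LysoPS libraries were apart from each other by more than the mock libraries were, and far above them. Usp18, the protease that removes ISG15 and that also holds back signalling at IFNAR2, had 15.8 and 12.2 CPM in LysoPS and 4.58 and 5.11 CPM in mock (log2 fold change 1.53, adjusted p = 0.00465). Herc6, the ligase that attaches ISG15 in mice, had 21.6 and 23.1 CPM in LysoPS and 11.2 and 12.3 CPM in mock (log2 fold change 0.92, adjusted p = 0.00514).

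The IFIT genes, whose products bind foreign RNA ends and block their translation, diverged within 1 cluster. They lie on the plus strand of chromosome 19 within 99.3 kb (34550694 to 34650009, GRCm38), in the order Ifit2, Ifit3, Ifit3b and Ifit1. Ifit1 (ENSMUSG00000034459) had 36.4 and 35.7 CPM in the LysoPS libraries, against 11.6 and 10.3 CPM in the mock libraries, with a log2 fold change of 1.72 (SE 0.10, adjusted p = 0.000873). Ifit2 (ENSMUSG00000045932), at the other end, had 30.8 and 36.2 CPM in LysoPS and 34.3 and 33.1 CPM in mock. Its groups overlapped and its log2 fold change was -0.01 (SE 0.11, adjusted p = 0.962), and it lay between -0.13 and 0.10 when any one library was left out, with a positive sign without LysoPS replicate 1 or mock replicate 1. Between them, Ifit3 had 50.9 and 40.6 CPM in LysoPS and 24.6 and 21.6 CPM in mock (log2 fold change 0.99, adjusted p = 0.00868), and Ifit3b had 22.2 and 19.4 CPM in LysoPS and 14.2 and 14.1 CPM in mock (log2 fold change 0.55, adjusted p = 0.0231). These neighbouring copies are hard to tell apart, since 51.2% of the 50-base words of the longest Ifit3 transcript also occur in Ifit3b, and their summed counts gave a log2 fold change of 0.84 (adjusted p = 0.00884). Ifit3b alone did not pass without LysoPS replicate 1 (adjusted p = 0.0515), mock replicate 1 (0.103) or mock replicate 2 (0.103).

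All 7 OAS and OAS-like genes were higher, 6 of them at least 2-fold, against 12.8% and 4.32% of all genes. The family held the largest change of the 39. OAS enzymes answer double-stranded RNA by making short oligoadenylates that switch on RNase L. Oas3 had 2.06 and 1.35 CPM in the LysoPS libraries, against 0.390 and 0.370 CPM in the mock libraries (4.45-fold, log2 fold change 2.15, SE 0.35, adjusted p = 0.0125). It rested on few counts, 69 and 59 in LysoPS and 12 and 16 in mock, the transcript length implied by its counts and FPKM varied 1.56-fold between libraries, and it did not pass without mock replicate 2 (adjusted p = 0.0597). Oas1a had 28.8 and 22.4 CPM in LysoPS and 7.24 and 6.06 CPM in mock (log2 fold change 1.95, adjusted p = 0.00253), and its near copy Oas1g had 10.2 and 7.89 CPM in LysoPS and 1.98 and 2.22 CPM in mock (log2 fold change 2.10, adjusted p = 0.0027). Of the 50-base words of the longest Oas1a transcript 57.6% also occur in Oas1g, so their split is uncertain, and their sum rose by 1.99 on the log2 scale (adjusted p = 0.00182). Oas2 rose by 1.71, with 8.13 and 6.57 CPM in LysoPS and 2.17 and 2.29 CPM in mock.

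The same family also held smaller changes. Oas1b, of which most laboratory strains carry a truncated form, had 3.44 and 2.68 CPM in LysoPS and 1.56 and 1.46 CPM in mock (log2 fold change 1.02, adjusted p = 0.029). Oasl1, which in mice restrains translation of Irf7, had 2.96 and 2.56 CPM in LysoPS and 1.04 and 0.671 CPM in mock (log2 fold change 1.71, adjusted p = 0.014). Oasl2, its neighbour on chromosome 5, was far more abundant, with 50.2 and 38.4 CPM in LysoPS and 26.9 and 27.0 CPM in mock, and changed least (log2 fold change 0.71, adjusted p = 0.0226). Without mock replicate 2, Oas1b (adjusted p = 0.130), Oasl1 (0.0559) and Oasl2 (0.0824) did not pass, nor did Oas1b (0.0995) and Oasl2 (0.0788) without mock replicate 1, or Oas1b (0.0792) without LysoPS replicate 1.

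The MX proteins are dynamin-like GTPases that trap viral nucleocapsids, and C57BL/6 mice are known to make no working MX1. The Mx1 transcript had 5.32 and 4.53 CPM in the LysoPS libraries, against 1.36 and 0.971 CPM in the mock libraries (4.25-fold, log2 fold change 2.09, SE 0.24, adjusted p = 0.00491). Its neighbour Mx2, 72.4 kb away on chromosome 16, had 2.33 and 3.20 CPM in LysoPS and 1.40 and 1.57 CPM in mock. The groups did not overlap for either gene, but Mx2 just missed the threshold (log2 fold change 0.90, adjusted p = 0.0532) and was on either side of it among other fits, with 0.0381 without LysoPS replicate 1, 0.0495 with DESeq2 size factors and 0.194 without mock replicate 1. The implied length of Mx2 varied 1.49-fold and that of Mx1 1.26-fold between libraries. In 32.5% of all genes, as in Mx1 and Mx2, both LysoPS libraries lay above both mock libraries.

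Of the 3 membrane restriction factors, 2 were higher, against 12.8% of all genes. Bst2 encodes tetherin, which holds budding virions at the cell surface, and had 54.3 and 42.0 CPM in the LysoPS libraries, against 18.1 and 18.4 CPM in the mock libraries (log2 fold change 1.40, SE 0.14, adjusted p = 0.00351). Ifitm3, which blocks fusion of endocytosed virus, had 269 and 219 CPM in LysoPS and 144 and 120 CPM in mock (log2 fold change 0.89, adjusted p = 0.0109). Its values made it the most abundant member by mean CPM.

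Ifitm2, a close relative of Ifitm3, gave the least certain value of the 39. It had 237 and 103 CPM in the LysoPS libraries, against 196 and 180 CPM in the mock libraries, so that LysoPS replicate 1 was the highest of the 4 and LysoPS replicate 2 the lowest (log2 fold change -0.15, SE 0.37, adjusted p = 0.799). Without LysoPS replicate 1 it was called lower (log2 fold change -0.87, adjusted p = 0.00505), and without LysoPS replicate 2 it was called higher (0.33, adjusted p = 0.0359). The gene model Gm45717 lies on the same strand and shares 268 exonic bases, 40.9% of the exons of Ifitm2. It was listed with 24 and 4066 counts in the LysoPS libraries and with 8 and 11 counts in the mock libraries. The sum of both models was 237 and 196 CPM in LysoPS and 196 and 181 CPM in mock, with a log2 fold change of 0.20 that did not pass (adjusted p = 0.24). The LysoPS library that was low for Ifitm2 was thus the library in which the overlapping model was high, and in the sum it lay beside the mock libraries.

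**Figure D2:**
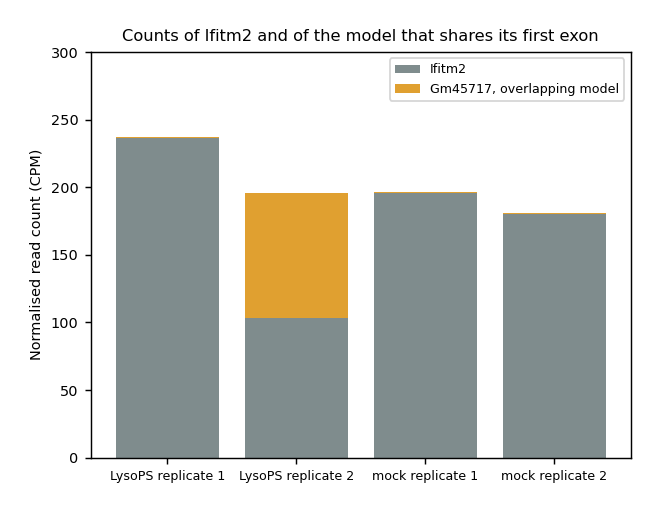
Normalised read counts (CPM) of Ifitm2 and of the overlapping gene model Gm45717, stacked, in each LysoPS and mock library. Gm45717 took 93.0 CPM in LysoPS replicate 2 and under 1 CPM in each of the others, and the stacked totals ran from 181 to 237 CPM.

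Among the effectors that act on nucleotides and RNA, 3 of 4 were higher, against 12.8% of all genes. Rsad2 encodes viperin, which turns CTP into a chain terminator of viral polymerases. It had 14.2 and 14.0 CPM in the LysoPS libraries, against 3.38 and 4.46 CPM in the mock libraries (3.58-fold, log2 fold change 1.84, SE 0.17, adjusted p = 0.0027). Cmpk2, the nucleotide kinase gene that lies 12.8 kb from Rsad2 on chromosome 12 and on the opposite strand, had 20.2 and 20.5 CPM in LysoPS and 17.2 and 15.8 CPM in mock. Its groups did not overlap, yet the difference did not pass (log2 fold change 0.30, SE 0.10, adjusted p = 0.085), also without any one library. Isg20, an RNA exonuclease, had 4.66 and 4.28 CPM in LysoPS and 2.66 and 1.92 CPM in mock (log2 fold change 0.97, adjusted p = 0.0314). Samd9l, a restriction factor of poxviruses, had 53.3 and 60.2 CPM in LysoPS and 37.1 and 38.9 CPM in mock (log2 fold change 0.58, adjusted p = 0.0118). Isg20 did not pass without LysoPS replicate 1 (adjusted p = 0.0743) or mock replicate 2 (0.132), and Samd9l did not without mock replicate 1 (0.0737) or mock replicate 2 (0.058).

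Led by Parp14, the ADP-ribosylation genes were all higher, against 12.8% of all genes. PARP14 adds single ADP-ribose units to proteins, and its transcript had 88.8 and 88.9 CPM in the LysoPS libraries, against 32.6 and 35.0 CPM in the mock libraries. The replicates nearly coincided, and this gave the smallest p-value of the 39 (log2 fold change 1.39, SE 0.08, adjusted p = 0.000745). Parp9 and Dtx3l encode partners of 1 complex and overlap head to head on chromosome 16, where Parp14 also lies, within 140 kb (35832874 to 35972605). Parp9 had 60.3 and 55.2 CPM in LysoPS and 35.3 and 35.9 CPM in mock (log2 fold change 0.70, adjusted p = 0.00523), and Dtx3l had 29.3 and 32.3 CPM in LysoPS and 22.7 and 23.4 CPM in mock (log2 fold change 0.42, adjusted p = 0.0303). They share 458 exonic bases on opposite strands, and reads there may not have been told apart. Parp12 had 58.7 and 60.6 CPM in LysoPS and 49.9 and 47.6 CPM in mock, the smallest rise that passed (log2 fold change 0.29, adjusted p = 0.0447). Parp12 did not pass without any one library (adjusted p from 0.0735 to 0.276), nor in the fit with no filter on low counts (0.0595), and Dtx3l passed without LysoPS replicate 1 but not without the others (0.0568 to 0.151).

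The other 8 genes were all higher, 5 of them at least 2-fold, against 12.8% and 4.32% of all genes. Phf11d, a PHD-finger gene, had 10.6 and 9.15 CPM in the LysoPS libraries, against 2.92 and 2.20 CPM in the mock libraries (log2 fold change 1.96, SE 0.19, adjusted p = 0.00339), and Ifi44 had 8.60 and 6.98 CPM in LysoPS and 2.60 and 1.92 CPM in mock (log2 fold change 1.79). Xaf1, a partner of the apoptosis inhibitor XIAP, rose by 1.30, Rtp4, a chaperone of receptors, by 1.14, and Sp100, a component of PML nuclear bodies, by 1.07 on the log2 scale. All 8 genes of this group had both LysoPS libraries above both mock libraries, as did 32.5% of all genes. The Rtp4 libraries stood at 10.8 and 8.05 CPM in LysoPS and 4.32 and 4.21 CPM in mock. Ifi35 rose by 0.89, and Ifi27, a small mitochondrial protein gene, by 0.53, with 62.4 and 57.1 CPM in LysoPS and 42.9 and 39.7 CPM in mock. Lgals3bp, which encodes a secreted ligand of galectin-3, had 174 and 138 CPM in LysoPS and 97.6 and 93.3 CPM in mock (log2 fold change 0.71, adjusted p = 0.0156). Without mock replicate 2, Rtp4 (adjusted p = 0.054), Ifi35 (0.0608), Lgals3bp (0.0651) and Ifi27 (0.0919) did not pass, and without mock replicate 1 Ifi27 did not (0.0519).

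**Figure D3:**
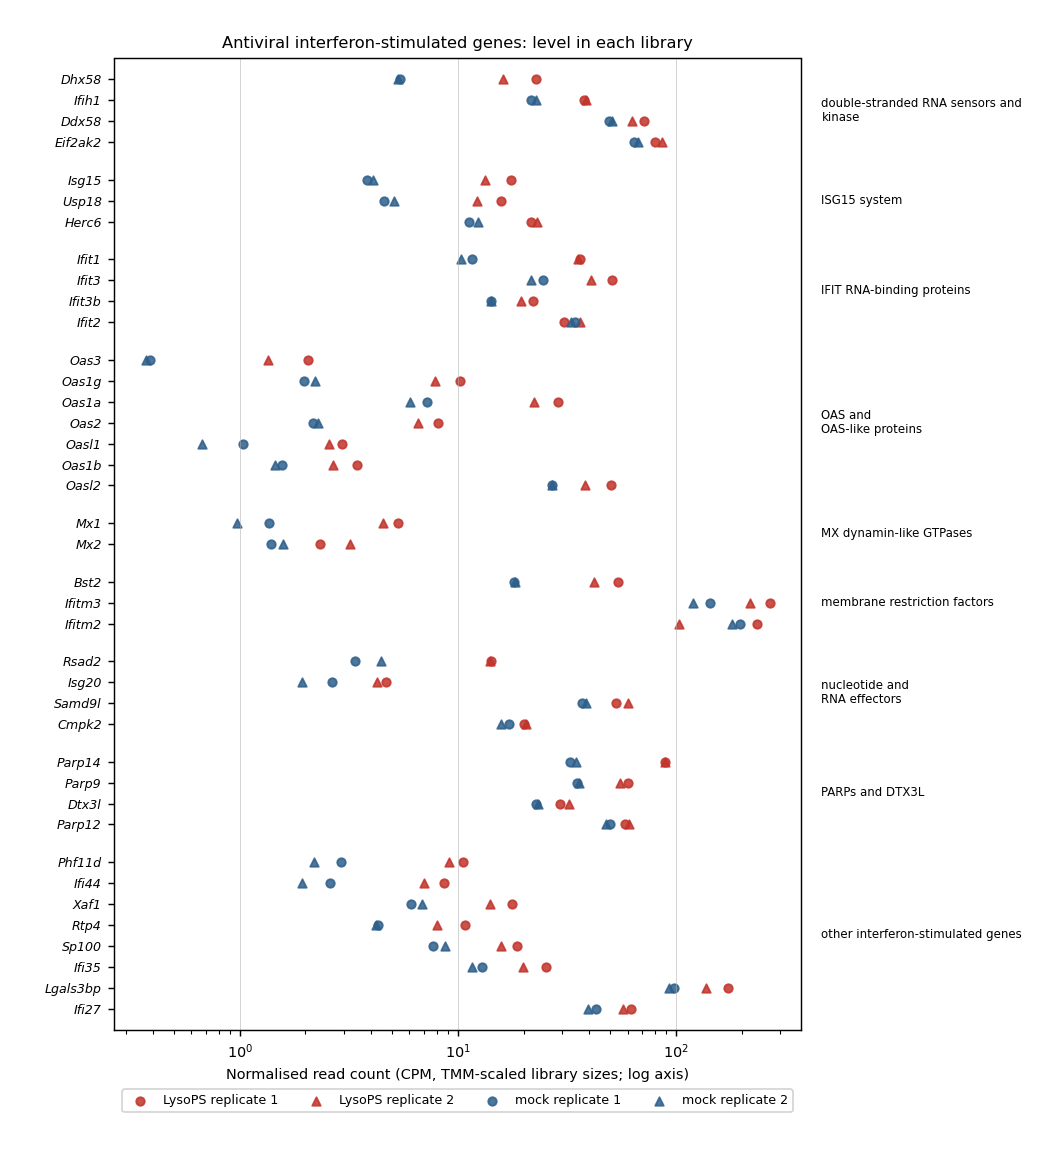
Normalised read count (CPM, log axis) of each member in the LysoPS libraries (red) and the mock libraries (blue), grouped by role. In 37 of 39 rows both red points lie to the right of both blue points, and Ifit2 and Ifitm2 are the exceptions.

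Per transcript length, the members spanned a wide range in both groups. In the authors' TPM values, Ifitm3 averaged 691 in LysoPS and 421 in mock, and Ifitm2 averaged 494 in LysoPS and 623 in mock. The Ifitm2 values carry the uncertainty from the overlapping model Gm45717 described above. Ifi27 (134 TPM in LysoPS, 104 in mock), Lgals3bp (130 in LysoPS, 90.9 in mock) and Bst2 (119 in LysoPS, 50.9 in mock) followed. At the low end were Oas3, with 0.733 TPM in LysoPS and 0.236 in mock, and Oasl1, with 2.75 TPM in LysoPS and 0.981 in mock. Summed over the 39, the members took 2508 and 1934 TPM in the LysoPS libraries, against 1736 and 1640 TPM in the mock libraries.

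The lower a member stood in mock, the larger its change tended to be. Across the 39 members the mean mock CPM and the log2 fold change had a Spearman rho of -0.77, and across all 19057 tested genes the same measure was 0.02. The mock libraries enter both axes and genes are not independent replicates, so this is a description only. Members below 10 CPM in mock included Isg15, Oas1a, Mx1, Rsad2 and Dhx58, which rose by 1.84 or more. They also included Mx2, which did not pass, Isg20 and Oas1b, with log2 fold changes of 0.90 to 1.02. Ddx58, Eif2ak2 and Parp12, at 48.8 CPM or more, rose by 0.42 or less. Ifitm3, Parp14 and Bst2 combined a higher mock level with a clear rise.

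**Figure D4:**
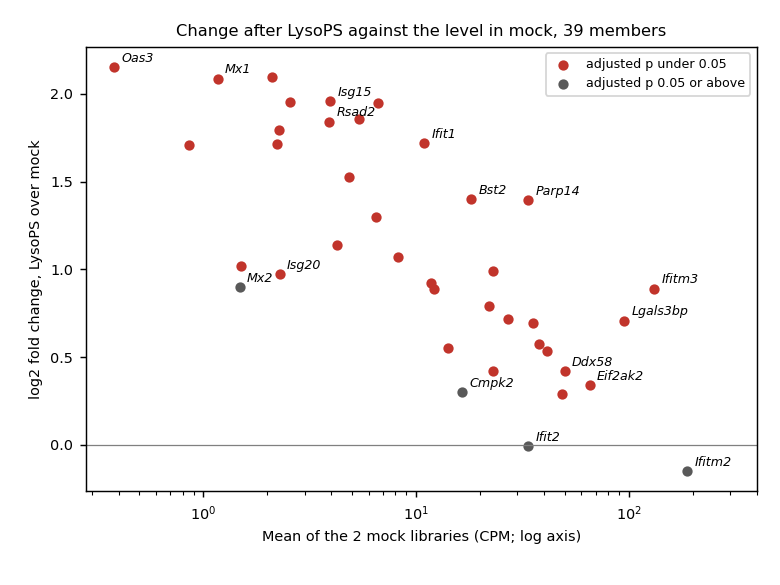
Log2 fold change (LysoPS over mock) of the 39 members against their mean level in the 2 mock libraries (CPM, log axis). Red points passed at an adjusted p under 0.05. The highest points, such as Oas3 and Mx1, lie at the left, where Mx2 and Isg20 lie lower.

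The LysoPS replicates were not equal for these genes. LysoPS replicate 1 was above LysoPS replicate 2 in 29 of 39 members (74.4%), with a median log2 ratio of 0.23, against 50.1% of all tested genes. Mock replicate 1 was above mock replicate 2 in 21 members (53.8%), against 53.2% of all genes. Without LysoPS replicate 2 the members' median log2 fold change was 1.15, and without LysoPS replicate 1 it was 0.91.

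Transcripts of the interferons themselves were scarce. Of 18 type I ligand genes, 16 had no count in any library, which allows up to 0.0686 to 0.0896 CPM in the LysoPS libraries and 0.0694 to 0.0974 CPM in the mock libraries (3 counts each; counting error only). Ifnb1, the type I interferon that macrophages make first, had 6 and 4 counts in the LysoPS libraries and 2 and 0 counts in the mock libraries, 4.80 times the level, for which counting error alone gives a 95% range of 1.02 to 45.0, and it was too low to be tested. Ifnz had 1 and 5 counts in LysoPS and 2 and 8 in mock. Of the type II and III ligands, Ifnl2 and Ifnl3 had no counts, and Ifng had 0 and 4 in LysoPS and 0 and 4 in mock.

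Of 6 receptor chains 4 were higher and 1 lower, against 12.8% of all genes higher and 12.6% lower. Ifnar1 had 168 and 166 CPM in the LysoPS libraries, against 144 and 140 CPM in the mock libraries (log2 fold change 0.23, adjusted p = 0.0497), and did not pass without any one library (0.0596 to 0.301). Ifnar2 had 81.3 and 77.1 CPM in LysoPS and 62.1 and 56.1 CPM in mock (log2 fold change 0.42, adjusted p = 0.0238), but it passed only without LysoPS replicate 2 when 1 library was left out (the others gave 0.0576 to 0.154). Ifngr2, a chain of the interferon gamma receptor, rose clearly, with 162 and 154 CPM in LysoPS and 79.9 and 77.3 CPM in mock (log2 fold change 1.01, adjusted p = 0.00131), whereas its partner Ifngr1 stood at 69.8 and 66.9 CPM in LysoPS and 66.4 and 61.4 CPM in mock (adjusted p = 0.417). Il10rb, shared with interferon lambda, rose by 0.41 (adjusted p = 0.0137, not below 0.0947 without either mock library), and Ifnlr1 averaged 0.555 ± 0.024 CPM in LysoPS and 1.17 ± 0.048 CPM in mock (SD, n = 2 each) and fell by 1.06 on the log2 scale, a call lost without any one library (0.102 to 0.211).

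Of 12 JAK, STAT and IRF transducers 6 were higher and none lower, against 12.8% and 12.6% of all genes. As among all genes, fewer of this list passed without mock replicate 1 or mock replicate 2. Irf7, the factor that amplifies interferon production and is itself interferon-induced, had 15.5 and 11.7 CPM in the LysoPS libraries, against 3.05 and 4.18 CPM in the mock libraries (log2 fold change 1.90, SE 0.23, adjusted p = 0.00536), with an implied length that varied 1.51-fold. It passed whichever library was left out. Stat2 stood at 28.5 and 25.6 CPM in LysoPS and 24.4 and 25.1 CPM in mock (log2 fold change 0.13, adjusted p = 0.373). Irf9, the DNA-binding part of ISGF3, rose by 0.35 (adjusted p = 0.0278), passing only without LysoPS replicate 2 when 1 library was left out, and Jak2 rose by 0.48 (adjusted p = 0.00845), which did not pass without mock replicate 1 (0.0697) or mock replicate 2 (0.0564).

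**Figure D5:**
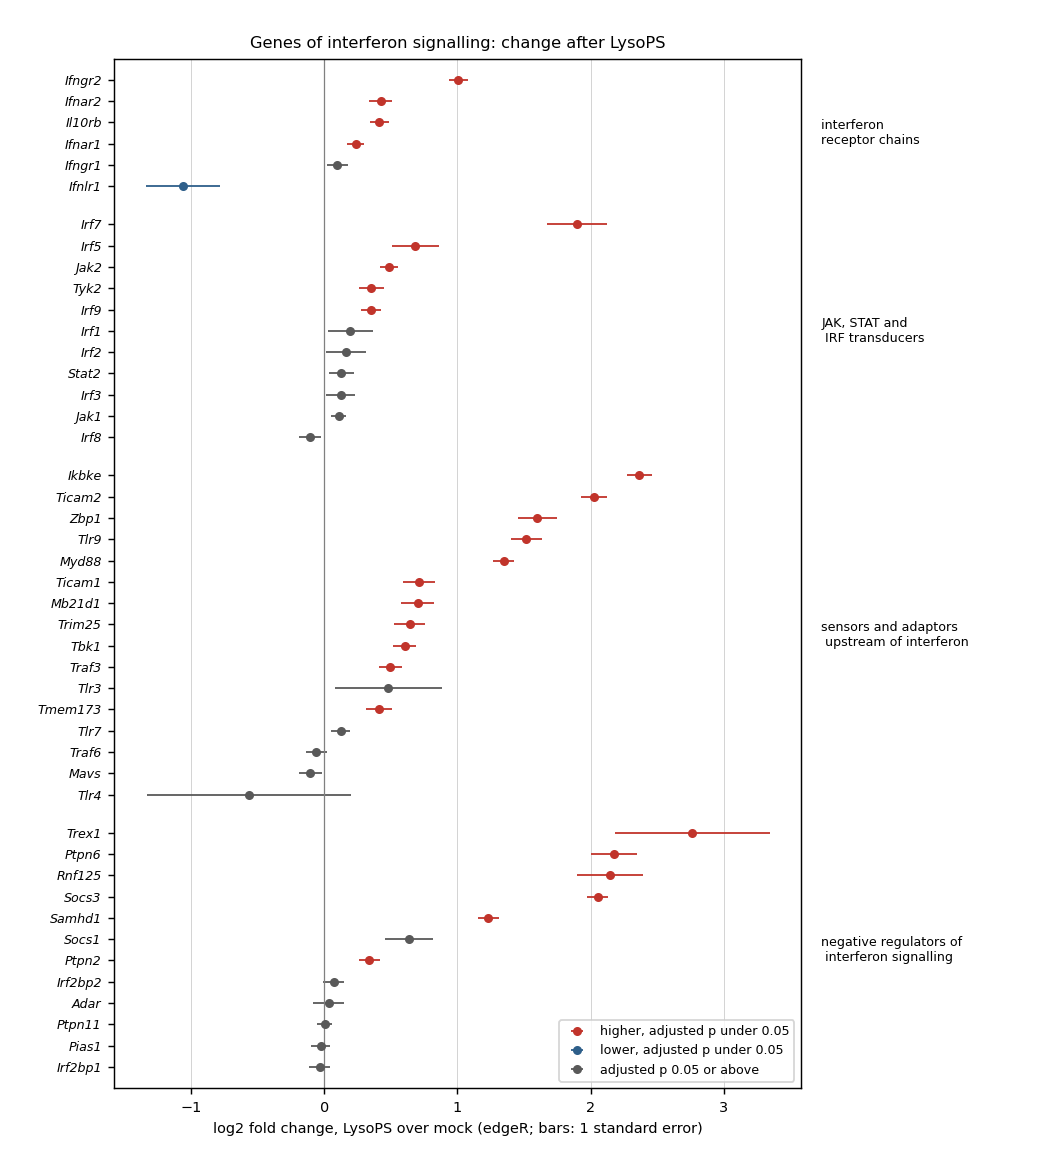
Log2 fold change of genes of interferon signalling described here, other than the chemokines, LysoPS over mock, by role. Points are edgeR estimates and bars 1 standard error. Irf7, Ikbke, Ticam2, Tlr9, Zbp1, Ptpn6, Rnf125, Socs3 and Trex1 lie above 1.5, and Stat2, Irf3, Mavs and Jak1 lie near 0.

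Upstream of the interferons, 11 of 16 sensors, adaptors and kinases were higher and none lower, against 12.8% and 12.6% of all genes. Ikbke, the kinase that works beside TBK1 on IRF3 and IRF7, had 141 CPM in each LysoPS library, against 29.1 and 25.5 CPM in the mock libraries (log2 fold change 2.37, SE 0.09, adjusted p = 0.000384). Ticam2, the adaptor TRAM, had 33.5 and 34.0 CPM in LysoPS and 7.92 and 8.65 CPM in mock (log2 fold change 2.02, adjusted p = 0.00054). Myd88 rose by 1.35 and Tlr9, the sensor of CpG DNA, by 1.52 on the log2 scale. All 4 kept their rise whichever library was left out. Fewer genes of the list passed without mock replicate 1 or mock replicate 2, as among all genes. Tlr4, the receptor of bacterial lipopolysaccharide, had 10.4 and 6.68 CPM in LysoPS and 21.6 and 3.86 CPM in mock, so that the mock libraries lay on either side of the LysoPS libraries (log2 fold change -0.57, adjusted p = 0.625). It was called lower without mock replicate 2 (log2 fold change -1.34, adjusted p = 0.0355) and stood at 1.14 without mock replicate 1 (adjusted p = 0.0819).

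Of 12 negative regulators of the pathway 6 were higher and none lower, against 12.8% and 12.6% of all genes. Socs3 had 97.6 and 92.0 CPM in the LysoPS libraries, against 23.3 and 22.4 CPM in the mock libraries (log2 fold change 2.05, adjusted p = 0.000378). Ptpn6, the phosphatase SHP-1, rose by 2.18, Rnf125, a ubiquitin ligase of RIG-I, by 2.15, and Samhd1, a nucleotide hydrolase, by 1.23 on the log2 scale, all 3 whichever library was left out. Usp18, described above, belongs with these by function. Without mock replicate 1 or mock replicate 2 fewer genes of the list passed, as among all genes.

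The interferon-inducible chemokines changed far more than any antiviral member. Cxcl10 had 137 and 110 CPM in the LysoPS libraries, against 7.34 and 4.81 CPM in the mock libraries (log2 fold change 4.35, SE 0.24, adjusted p = 0.000745), and Ccl5 had 60.3 and 44.6 CPM in LysoPS and 3.02 and 1.76 CPM in mock (log2 fold change 4.48). Cxcl11 had 214 counts in LysoPS and none in mock, at least 68.4-fold higher with a floor of 3 counts over the group. Cxcl9, typical of interferon gamma, had 39 counts in LysoPS and 2 in mock, 18.7 times the level with a 95% range of 4.84 to 160 from counting error alone, and its adjusted p of 0.0428 became 0.141 without LysoPS replicate 1, 0.055 without mock replicate 1 and 0.158 without mock replicate 2. Over the 5 lists with tested genes, from receptors to chemokines, 31 genes were higher and 1 lower, against 12.8% and 12.6% of all genes. Fewer were higher without mock replicate 1 or mock replicate 2, as among all genes.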

How the data were processed

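Poly-A selected RNA of 4 libraries was sequenced paired-end on MGISEQ2000 instruments, per the labels' protocols. The submitters' processing notes name StringTie, HISAT2, Trimmomatic 0.36, FastQC 0.11.2 and build GRCm38; for the gene counter, annotation release and strand setting nothing is given in the sources used here. The deposited table holds 3 values per gene model and library, per the file headers: count, TPM and FPKM. The deposited counts are whole and not normalised. The authors' TPM values were used for levels between genes and 1 alternative fit. The authors' FPKM values were used only with counts for the transcript length they imply. All 39 members and 48577 of 51826 models have the same coordinates in GENCODE M21.

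Counts were analysed with edgeR 4.0.16 in R 4.3.3: filterByExpr (minimum count 10), TMM scaling, quasi-likelihood F test of LysoPS against mock with 2 residual degrees of freedom, two-sided, Benjamini-Hochberg adjusted over 19057 genes, threshold 0.05. The SE is the size of the log2 fold change divided by the square root of F. The method was run on simulated counts in which all genes shared 1 dispersion, unlike the spread of single genes in these data. Changes were simulated only in genes with ample counts, so members with few counts were not covered. An exact permutation test of 2 against 2 libraries cannot go below p = 0.333 and was not used. Alternatives were DESeq2 1.42.0, its size factors, limma-voom (limma 3.58.1), robust dispersion, other filters (none; 5 CPM in 2 libraries), a replicate block and each library left out. The fit on log2(TPM + 0.5) and the sums of gene pairs were added after seeing the data.

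Members and lists were chosen with earlier results of these data known. Full values were planned for the 6 members with the largest changes among those called, the 6 with the highest mean CPM and all that did not pass; from pathway lists, all genes of lists of up to 6 and otherwise the 4 smallest p-values plus Ifnb1, Ifnar1, Ifnar2, Stat2, Irf7 and Irf9; and the 3 most abundant markers of each list. Some genes that these rules name are not reported here, and they stay in the counts. Values of other members, Gm45717, Ifnz, Tlr4 and genes named from the plots were added after their values were seen. Shared sequence was searched with 50-base words in GENCODE M21 transcripts.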

Additional observations from a re-analysis of the deposited data

How the results depend on the processing

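The count of 35 higher members lay between 30 and 36 under DESeq2 size factors, no filter, the stricter filter (which tested 33 of the 39), DESeq2, limma-voom, robust dispersion and the replicate block, and was 25 with log2(TPM + 0.5). Leaving out 1 library gave 20 to 33 higher members and 0 to 1 lower, a median of 0.91 to 1.15, 1161 to 2768 higher and 986 to 2588 lower genes in all, and 16 to 28 higher and 0 to 1 lower genes in the pathway lists, the 1 lower being Tlr4 without mock replicate 2. With log2(TPM + 0.5) 1354 of all genes were higher, against 2447, the members' median was 0.73, or 0.89 above that of all genes, and 18 pathway genes were higher. The pathway gene called lower with all libraries, Ifnlr1, was lost whichever library was left out, and also (0 lower) with no filter, the stricter filter, DESeq2, limma-voom, robust dispersion, the replicate block and TPM; the cause was not tested. Signs turned for Ifit2, at 0.0056 with DESeq2 size factors, 0.0064 with DESeq2, and -0.13 to 0.10 when 1 library was left out, positive without LysoPS replicate 1 (0.10) and mock replicate 1 (0.02), and for Ifitm2, at -0.87 without LysoPS replicate 1 and 0.33 without LysoPS replicate 2. Replicate numbers are shared by the groups, but nothing says that they pair the samples (correlation of deviations 0.08); the fit with the replicate block gave 36 higher members and 2797 higher and 2636 lower genes, and changed no other member's call than that of Mx2 (adjusted p = 0.0496). Of the members, 34 had an implied length within 1.2-fold in all libraries, and 31 of these were higher. The sums of Ifit3 with Ifit3b and of Oas1a with Oas1g kept the direction of both genes. Ifitm2 alone stood at -0.15, its sum with Gm45717 gave 0.20 (adjusted p = 0.24) and its sum with Ifitm3 gave 0.37 (adjusted p = 0.265). The sum with Ifitm3 leaves out the counts listed for Gm45717. With 2 libraries a group, small changes could be missed.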
